A study of Mus musculus with 13 samples.

Results

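The 7 genes described here had been picked from the series because their transcript was lower in glomeruli of DH-LMP2A mice than in those of wild-type (WT) mice: Nxpe2, Nxpe4, Cldn34c1, Arl2bp, Mylk3, 2610305D13Rik and Arhgap19. They are 7 of the 46958 genes counted. The comparison of DH-LMP2A with WT chose them, so its values and calls for these genes are a description and support nothing. The question was which of them were also low in the third genotype, the model of light chain deposition disease (LCDD), and which were not. Of these, 4 genes, Nxpe2, Nxpe4, Cldn34c1 and Arhgap19, were low in LCDD too, with libraries that overlapped those of DH-LMP2A. Arl2bp lay between the other genotypes. Mylk3 and 2610305D13Rik were not called between LCDD and WT. For 2610305D13Rik the WT range lay within the wider range of LCDD. For Mylk3 the mean was highest in WT, with 1 WT library among those of LCDD.

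Glomeruli, the filtering units of the kidney, had been isolated on magnetic beads, all from mice 6 months old, and their messenger RNA was sequenced. LCDD was represented by 4 libraries of the genotype labelled kFRA, DH-LMP2A by 4 libraries and WT by 5. Each library was a pool of 3 mice except WT libraries 3, 4 and 5, which were 1 mouse each. All mice had a mixed C57/BL6x129/SVxBALB/c background, and the labels do not give the share of each strain in any mouse. Strain origin and genotype therefore cannot be told apart here, and the term strain-variable was not tested. In LCDD, monoclonal immunoglobulin light chains are deposited in the kidney. The DH-LMP2A allele places the LMP2A gene of Epstein-Barr virus in the immunoglobulin heavy chain locus, so that B cells develop without a normal heavy chain. Whether the LCDD mice also carried it is not stated in the labels.

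Libraries held 16687509 to 30587890 counted read pairs, and 16738 genes had enough counts to be tested, all 7 genes among them. Levels are given as CPM, counts per 1e6 counts of the library after TMM scaling, which corrects totals for composition. A count of 3 was taken as the floor, which corresponds to 0.0971 to 0.185 CPM. The summed level of 6 podocyte markers was 6790 to 29200 CPM in LCDD, 15000 to 29800 in DH-LMP2A and 14100 to 31900 in WT. Sex composition differed between the libraries. Counts of the Y-linked gene Ddx3y were 0 to 1 in 4 of the 5 WT libraries and 197 in WT library 2, and 208 to 2296 in the other genotypes. Nothing says whether the pools of a genotype came from separate litters, so the p-values measure only the spread between these libraries. In whole glomeruli, fewer cells of a type and less RNA per cell cannot be told apart.

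The genes belong to several families. Nxpe2 and Nxpe4 encode members of the neurexophilin and PC-esterase domain family, which is best known from intestinal epithelium. Cldn34c1 encodes a member of the claudins, the membrane proteins that form tight junctions between epithelial cells. Arhgap19 encodes a GTPase-activating protein that switches off RhoA, the small GTPase that drives the contractile ring at the end of cell division. Arl2bp encodes a partner of the small GTPases ARL2 and ARL3, which act in cilia, in tubulin folding and in mitochondria. Mylk3 encodes the myosin light chain kinase of heart muscle. The gene listed as 2610305D13Rik is named Zfp979 in RefSeq, with the synonym Ssm1b, and encodes a KRAB zinc finger protein. Proteins of that class bind DNA, often in repeats, and recruit repressors, and Ssm1b is known as a strain-specific modifier of DNA methylation. These genes lie on 5 chromosomes.

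The sequence upstream of the start is shown for 4 of the genes: for Nxpe2 and Nxpe4, which are neighbours and moved together, for Arhgap19, a gene of the cell division machinery, and for 2610305D13Rik, which had no count in DH-LMP2A. Each line gives the 250 bases before the RefSeq start on the gene's own strand, from the RefSeq table of GRCm38.p6. Capitals mark matches on either strand to the TATA box (TATAAA), the CCAAT box, the GC box (GGGCGG) or the core of the cell cycle genes homology region (TTTGAA). The Nxpe2 window is chr9:48340899-48341148 on the minus strand, that of Nxpe4 chr9:48361791-48362040 on the plus strand, that of Arhgap19 chr19:41802085-41802334 on the minus strand, and that of 2610305D13Rik chr4:147642509-147642758 on the minus strand.
Nxpe2: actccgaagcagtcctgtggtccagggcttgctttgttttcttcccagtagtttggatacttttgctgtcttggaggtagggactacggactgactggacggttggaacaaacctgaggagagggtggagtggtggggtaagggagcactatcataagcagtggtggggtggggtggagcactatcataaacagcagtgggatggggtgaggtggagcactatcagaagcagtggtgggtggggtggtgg
Nxpe4: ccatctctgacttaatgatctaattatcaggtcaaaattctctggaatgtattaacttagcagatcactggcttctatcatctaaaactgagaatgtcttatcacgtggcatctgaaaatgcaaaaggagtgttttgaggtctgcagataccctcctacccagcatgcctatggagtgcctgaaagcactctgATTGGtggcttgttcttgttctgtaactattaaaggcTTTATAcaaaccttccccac
Arhgap19: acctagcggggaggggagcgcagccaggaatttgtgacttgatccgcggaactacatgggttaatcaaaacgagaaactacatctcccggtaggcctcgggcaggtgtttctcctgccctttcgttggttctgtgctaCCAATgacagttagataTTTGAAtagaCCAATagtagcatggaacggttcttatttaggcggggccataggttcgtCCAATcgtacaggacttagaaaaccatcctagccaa
2610305D13Rik: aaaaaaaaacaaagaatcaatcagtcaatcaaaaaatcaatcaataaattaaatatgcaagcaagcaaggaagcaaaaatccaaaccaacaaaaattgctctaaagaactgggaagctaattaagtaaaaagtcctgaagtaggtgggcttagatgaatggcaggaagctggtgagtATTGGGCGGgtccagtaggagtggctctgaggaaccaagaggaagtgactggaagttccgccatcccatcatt

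The windows had little in common. That of Nxpe2 held none of the 4 motifs and 3 CG dinucleotides, against a median of 6 over all 32817 promoter windows. The RefSeq start of Nxpe2 lies 12556 bases inside the 5′ end of the gene in the deposited table, so the window is that of an inner start. The Nxpe4 window held 1 CG, a TATAAA match 20 bases before the start and a CCAAT match 57 bases before it, both as the reverse complement. Among all windows, 12.4% held TATAAA and 33.8% held CCAAT. The Arhgap19 window held 12 CG and CCAAT 112, 85 and 36 bases before the start, and 2.79% of windows held CCAAT 3 times or more. It also held TTTGAA, the core of a motif common in promoters of cell cycle genes, 95 bases before the start, and 5.54% of windows held both CCAAT and TTTGAA. The window of 2610305D13Rik held 2 CG and a CCAAT match 73 bases before the start that overlaps a GGGCGG match at 70 bases. GGGCGG was in 32.7% and TTTGAA in 16% of windows. A match describes the letters only.

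All 7 genes were called lower in DH-LMP2A than in WT, where 0.352% of all tested genes were called lower, and in each of them every DH-LMP2A library lay below every WT library, as in 2.33% of tested genes. Both follow from the choice of the genes. Of the 7, 5 were called lower in LCDD than in WT (edgeR quasi-likelihood test, adjusted p under 0.05), and none was called higher. At an unadjusted p under 0.05, 6 were lower, Mylk3 being the sixth, and 0 higher, and DESeq2 called 5 and 0. Of all tested genes 0.544% were called lower in that comparison and 1.3% higher. The WT libraries are those that took part in choosing the genes, so this count is partly fixed by the choice. For the same 5 genes every LCDD library lay below every WT library, as in 1.63% of tested genes. Every WT library also lay above all 8 libraries of the other genotypes, as in 0.454%. For these genes the DH-LMP2A part of this condition follows from their choice, so it adds nothing to the comparison with LCDD. With a covariate for sex markers 4 of the 7 were called lower, all but Arl2bp of the 5, while the calls over all genes went from 308 to 33. The median log2 fold change of the 7 genes between LCDD and WT was -2.76, against 0.0102 over all tested genes. Against DH-LMP2A, 3 of the 7 were called higher in LCDD and none lower, also at an unadjusted p under 0.05 and with DESeq2, where 1.3% of tested genes were called higher and 0.693% lower in LCDD. This comparison shares the DH-LMP2A libraries with the choice. For these 3 genes every LCDD library lay above every DH-LMP2A library, as in 4.74% of tested genes. The median log2 fold change of the 7 was -0.0169, against -0.00614 over all tested genes, with Cldn34c1, at or under the floor in both genotypes, at its fitted value. This median falls between 3 genes well above 0 and the rest, and describes neither. The title code, which paired LCDD with DH-LMP2A libraries, raised the number of genes called between them from 334 to 1021 when fitted as a block, and leaving out 1 library gave 113 (without DH-LMP2A library 2) to 484. The same 3 of the 7 were called in each of these fits.

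**Figure D1:**
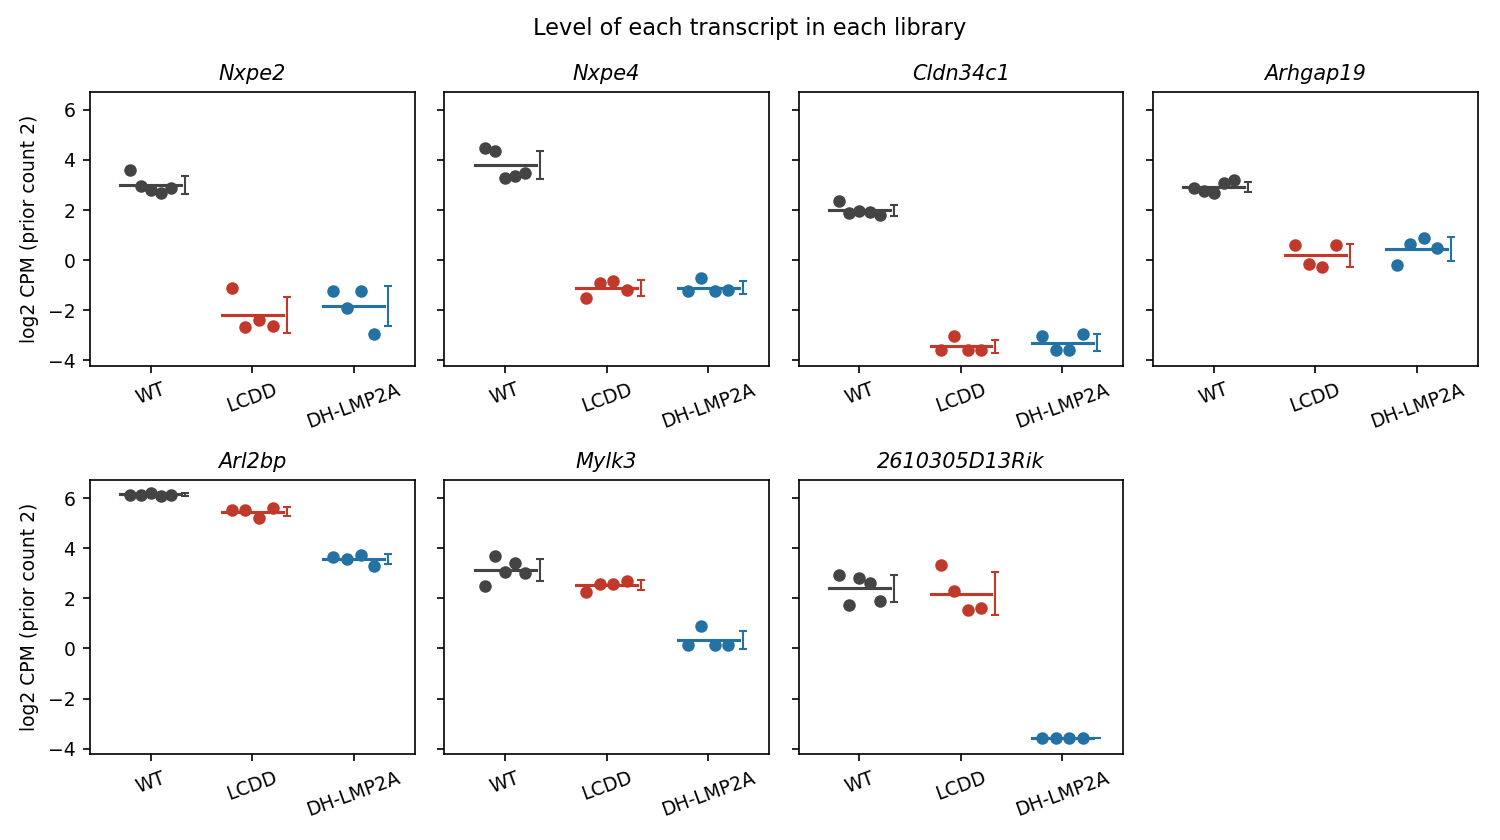
Level of each of the 7 genes in the 13 libraries, as log2 CPM with a prior count of 2, with points for libraries, horizontal lines for genotype means and bars for the SD. Libraries without counts lie at -3.57. For Nxpe2, Nxpe4, Cldn34c1 and Arhgap19 the LCDD points lie with the DH-LMP2A points, and for Mylk3 and 2610305D13Rik they overlap the WT points.

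Nxpe2 and Nxpe4 are neighbours on chromosome 9 (GRCm38). Nxpe2 (ENSMUSG00000032028.15) spans 48318006 to 48353454 on the minus strand and Nxpe4 (ENSMUSG00000044229.9) spans 48362041 to 48400025 on the plus strand, with 8.59 kb between them in the deposited gene models. Their 5′ ends face each other. Both are protein coding. In GENCODE release M21 the Nxpe4 gene starts at 48162023, so that it overlaps Nxpe2 there, and reads of the pair may not be fully separable if strand was not used in counting.

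Nxpe2 had 12.004, 7.66, 6.93, 6.40 and 7.34 CPM in WT libraries 1 to 5. It had 0.384, 0.0753, 0.108 and 0.0789 CPM in the LCDD libraries, which are 10, 2, 2 and 2 counts, so that 3 of the 4 lay under the floor. DH-LMP2A libraries had 0.337, 0.185, 0.343 and 0.0448 CPM. Every WT library was far above the rest, and LCDD overlapped DH-LMP2A at 1 to 10 counts a library. The mean was 8.07 ± 2.25 CPM (SD, n = 5) in WT, 0.161 ± 0.149 (SD, n = 4) in LCDD and 0.227 ± 0.142 (SD, n = 4) in DH-LMP2A. Nxpe2 was 47.7-fold lower in LCDD than in WT (log2 fold change -5.58 ± 0.56, SE; edgeR adjusted p = 0.000261). Against DH-LMP2A the log2 fold change was -0.45 ± 0.60 (SE) with a 95% interval from -1.74 to 0.85 (edgeR adjusted p = 0.815). Without LCDD library 1, which had 10 counts, the log2 fold change was -6.47 against WT, which was still called, and -1.34 against DH-LMP2A, which was not.

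Nxpe4 showed the same order with a wider spread within WT. WT libraries had 22.0, 20.4, 9.73, 10.1 and 11.1 CPM, so that both pools lay above the 3 single mice. LCDD libraries had 0.269, 0.452, 0.485 and 0.355 CPM and DH-LMP2A libraries 0.337, 0.519, 0.343 and 0.358 CPM. The gap between WT and the rest was wider than the split within WT, and LCDD and DH-LMP2A overlapped. Nxpe4 was 37.4-fold lower in LCDD than in WT (log2 fold change -5.23 ± 0.36, SE; edgeR adjusted p = 6.83e-06). Between LCDD and DH-LMP2A the log2 fold change was -0.02 ± 0.36 (SE), with a 95% interval from -0.80 to 0.77 (edgeR adjusted p = 0.990). Its direction changed when single libraries were left out, with values from -0.13 to 0.16. Between DH-LMP2A and WT, the contrast that chose the pair, the log2 fold change was -5.13 for Nxpe2 and -5.21 for Nxpe4.

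Cldn34c1 (ENSMUSG00000079450.11; X chromosome, 123103495 to 123188795, plus strand) was the nearest to an on and off pattern among the 4. WT libraries had 157, 58, 94, 83 and 84 counts, or 5.08, 3.58, 3.76, 3.71 and 3.41 CPM. LCDD libraries had 0, 1, 0 and 0 counts and DH-LMP2A libraries 1, 0, 0 and 1. It was at or under the floor in all 8 libraries of these genotypes, so the level in LCDD was at least 30.8-fold lower than in WT, computed against the mean floor per library (edgeR adjusted p = 1.53e-05). No fold is given between LCDD and DH-LMP2A. The gene has near-identical relatives on the X chromosome, and its counts are uncertain where reads could be shared among them. Cldn34c1 lies on the X chromosome, and Xist, the RNA of the inactive X chromosome, also differed between the groups, with 557 to 1654 CPM in WT, 0.485 to 1000 in LCDD and 38.01 to 1001 in DH-LMP2A. With the sex marker covariate Cldn34c1 was still called lower in LCDD than in WT (edgeR adjusted p = 0.00152). The part of sex composition in its level was otherwise not tested. Of 16738 tested genes, 9 did not exceed the floor in any DH-LMP2A library and exceeded it in every WT library (0.0538%), and 4 showed the reverse (0.0239%). Cldn34c1 was among the 5 of the 9 that exceeded it in no LCDD library either (0.0299%), and 2610305D13Rik was among the 2 that exceeded it in every LCDD library (0.0119%).

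Arhgap19 (ENSMUSG00000025154.15; chromosome 19, 41766588 to 41802084, minus strand) fell less far. WT libraries had 7.18, 6.73, 6.37, 8.46 and 9.004 CPM, LCDD libraries 1.42, 0.828, 0.754 and 1.42 CPM, and DH-LMP2A libraries 0.786, 1.48, 1.77 and 1.30 CPM. All 8 libraries of the latter genotypes lay below the lowest WT library and overlapped each other. Arhgap19 was 6.78-fold lower in LCDD than in WT (log2 fold change -2.76 ± 0.29, SE; edgeR adjusted p = 0.000325). Between LCDD and DH-LMP2A the log2 fold change was -0.26 ± 0.29 (SE), with a 95% interval from -0.89 to 0.37 (edgeR adjusted p = 0.776). Between DH-LMP2A and WT it was -2.50.

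Arl2bp (ENSMUSG00000031776.17; chromosome 8, 94666755 to 94674417, plus strand) had the highest level of the 7 genes and separated all 3 genotypes. WT libraries had 70.4, 70.1, 74.1, 67.5 and 70.4 CPM. LCDD libraries had 46.2, 45.3, 36.4 and 49.1 CPM and DH-LMP2A libraries 12.5, 11.9, 13.3 and 9.67 CPM. No library of one genotype overlapped another. Arl2bp was 1.59-fold lower in LCDD than in WT (log2 fold change -0.67 ± 0.11, SE; edgeR adjusted p = 0.00722). It was 3.73-fold higher in LCDD than in DH-LMP2A (log2 fold change 1.90 ± 0.12, SE; edgeR adjusted p = 3.55e-06). The call against WT was lost with a covariate for sex markers, with -0.51 on the log2 scale (edgeR adjusted p = 0.296), and without the 3 single-mouse WT libraries, at -0.70 (edgeR adjusted p = 0.155). Within the title codes that hold both genotypes the log2 difference between LCDD and WT was -0.61, -0.95 and -0.52. Between DH-LMP2A and WT the log2 fold change was -2.57.

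Mylk3 (ENSMUSG00000031698.14; chromosome 8, 85324303 to 85386345, minus strand) was not called between LCDD and WT. WT libraries had 5.50, 12.8, 8.29, 10.5 and 7.91 CPM and LCDD libraries 4.72, 5.91, 5.82 and 6.43 CPM. DH-LMP2A libraries had 1.01, 1.78, 1.03 and 1.03 CPM. WT library 1 lay among the LCDD libraries, while the other 4 WT libraries were above them all. The log2 fold change between LCDD and WT was -0.65 ± 0.25 (SE), with a 95% interval from -1.20 to -0.11 before adjustment (edgeR adjusted p = 0.283). Mylk3 was 4.68-fold higher in LCDD than in DH-LMP2A (log2 fold change 2.23 ± 0.28, SE; edgeR adjusted p = 0.0017). Between DH-LMP2A and WT the log2 fold change was -2.88.

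2610305D13Rik (ENSMUSG00000066000.12; chromosome 4, 147611937 to 147642513, minus strand) had no count in any DH-LMP2A library. LCDD libraries had 263, 127, 52 and 75 counts, or 10.1, 4.78, 2.80 and 2.96 CPM. WT libraries had 233, 52, 175, 134 and 89 counts, or 7.54, 3.21, 7.01, 6.00 and 3.61 CPM. The WT range lay within that of LCDD, and the spread within each genotype was wide. LCDD libraries 3 and 4 lay below every WT library and LCDD library 1 above every WT library. The log2 fold change between LCDD and WT was -0.09 ± 0.43 (SE), with a 95% interval from -1.04 to 0.87 (edgeR adjusted p = 0.979). Its direction changed when single libraries were left out. Against DH-LMP2A the level in LCDD was at least 39.0-fold higher, computed against the mean floor per library (edgeR adjusted p = 0.000717). Zinc finger genes of this class have close relatives on chromosome 4, and how shared reads were counted is not given in the sources used here.

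**Figure D2:**
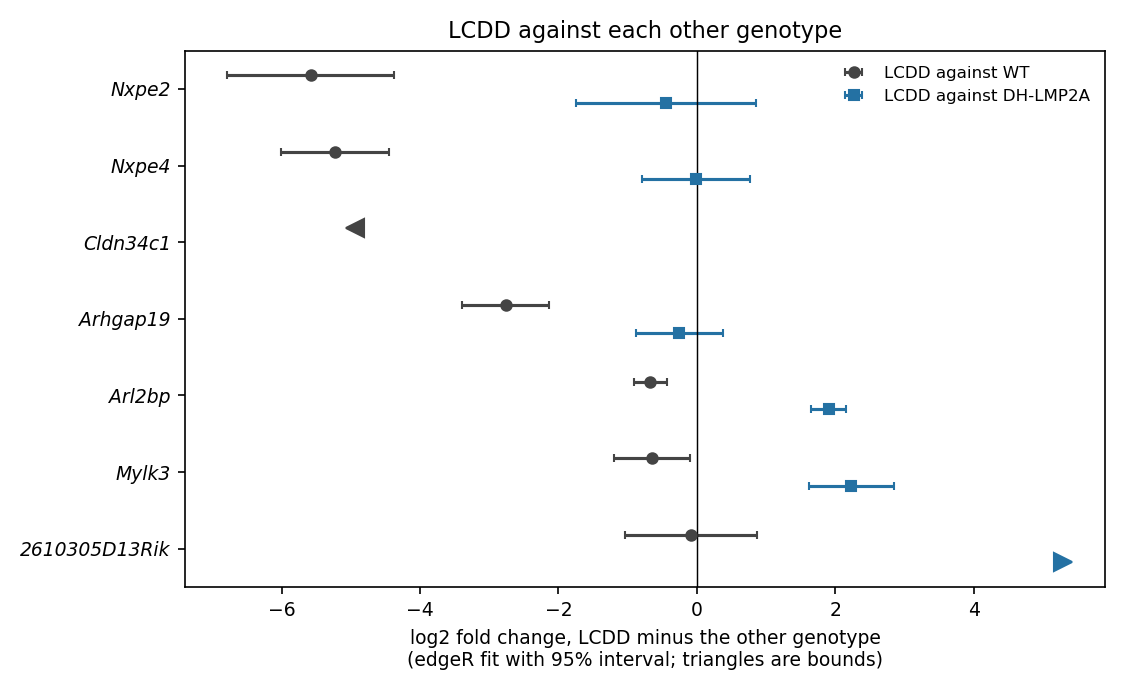
Log2 fold change of LCDD against WT (circles) and against DH-LMP2A (squares) for each gene, with the 95% interval of the edgeR fit, and triangles for bounds where 1 genotype was at or under the floor. Cldn34c1 has no value against DH-LMP2A because both were at or under the floor, and the upper 4 genes lie at -2.76 or lower against WT.

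Per length of exon, Arl2bp was the highest of the genes in WT at 37.0 CPM per kilobase of exon (RPKM), followed by Nxpe4 at 4.62, Mylk3 at 2.10, Nxpe2 at 1.97, Arhgap19 at 1.47, 2610305D13Rik at 1.33 and Cldn34c1 at 0.671. In LCDD the order was different. Arl2bp stood at 23.2 RPKM, Mylk3 at 1.34 and 2610305D13Rik at 1.25, above Arhgap19 at 0.215, Nxpe4 at 0.123, Nxpe2 at 0.0393 and Cldn34c1 at 0.00162. In LCDD, Cldn34c1 was at or under the floor in all 4 libraries and Nxpe2 in 3 of 4, so their place in this order is not resolved. Across the 13 libraries, correlations of log2 CPM among Nxpe2, Nxpe4, Cldn34c1 and Arhgap19 were 0.942 to 0.987 and those among Arl2bp, Mylk3 and 2610305D13Rik 0.91 to 0.956. Between these sets they were 0.47 to 0.711. The points share their genotype, and the genes were chosen for 1 of the contrasts, so these values restate the levels above.

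Relatives and partners of the genes mostly showed no call. Of the NXPE family, 4 genes were in the table and 3 were tested. Nxpe3, the third tested gene, had 20.4 ± 4.62 CPM in WT (SD, n = 5) and 25.6 ± 5.16 in LCDD (SD, n = 4), or 0.33 ± 0.21 (SE) on the log2 scale (edgeR adjusted p = 0.638). Nxpe5 had at most 8 counts in a library and was not tested. Of 10 genes of the claudin 34 family, Cldn34c1 was the only one with enough counts to be tested. Cldn34c3 had 2 to 4 counts in the WT libraries and at most 1 in the others.

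Among the 14 tested genes of the ARL2 and ARL3 module, which holds the GTPases, their partners and the tubulin cofactors, Arl2bp was the only one called lower in LCDD than in WT. Unc119, a carrier of lipid-modified proteins that ARL3 unloads, was the one called higher, with 10.3 ± 1.72 CPM in LCDD (SD, n = 4), 3.97 ± 1.68 in WT (SD, n = 5) and 3.29 ± 0.618 in DH-LMP2A (SD, n = 4). Its log2 fold change was 1.38 ± 0.27 against WT (SE; edgeR adjusted p = 0.0178) and 1.65 ± 0.29 against DH-LMP2A (SE; edgeR adjusted p = 0.0114). Arl2 itself differed by -0.12 ± 0.17 (SE) on the log2 scale between LCDD and WT (edgeR adjusted p = 0.891). Among 13 tested myosin light chain kinases, light chains and phosphatase subunits, none was called between LCDD and WT. Mylk3 was the only one called between LCDD and DH-LMP2A, where 2% of all tested genes were called. The DH-LMP2A libraries took part in choosing Mylk3. Mylk, the kinase of smooth muscle, differed by -0.04 ± 0.26 (SE) on the log2 scale between LCDD and WT (edgeR adjusted p = 0.981).

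Arhgap19 stood apart in direction from the called genes of its list. As the WT libraries took part in choosing it, its own direction is partly fixed. Of the 13 tested genes of the RhoA and cytokinesis list, 5 were called higher in LCDD than in WT. Arhgap19 was the only one called lower, and the rest were not called. Over all tested genes the shares were 1.3% higher and 0.544% lower. The higher genes included Anln, which links RhoA to the contractile ring (log2 fold change 2.41 ± 0.33, SE; edgeR adjusted p = 0.00224), Kif23 (1.48 ± 0.26, SE; edgeR adjusted p = 0.0104) and Racgap1 (1.29 ± 0.25, SE; edgeR adjusted p = 0.0181), the subunits of centralspindlin, and the mitotic kinase Aurkb (1.96 ± 0.41, SE; edgeR adjusted p = 0.0281). For Rhoa itself the log2 fold change was -0.08 (edgeR adjusted p = 0.908). The list's median was 0.468, against 0.0102 over all tested genes. Of 15 mitotic genes, 11 were called higher in LCDD than in WT and 9 higher than in DH-LMP2A. Over all tested genes the share called higher was 1.3% in each comparison. The medians of the 15 genes were 2.02 and 2.07. Their summed level was 195, 128, 105 and 96.7 CPM in LCDD, 31.6 to 37.0 in DH-LMP2A and 25.9 to 39.8 in WT. Arhgap19 was thus low in both DH-LMP2A, where the mitotic sum lay in the range of WT, and LCDD, where it lay above it. The mitotic genes' part in the level of Arhgap19 was not tested.

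**Figure D3:**
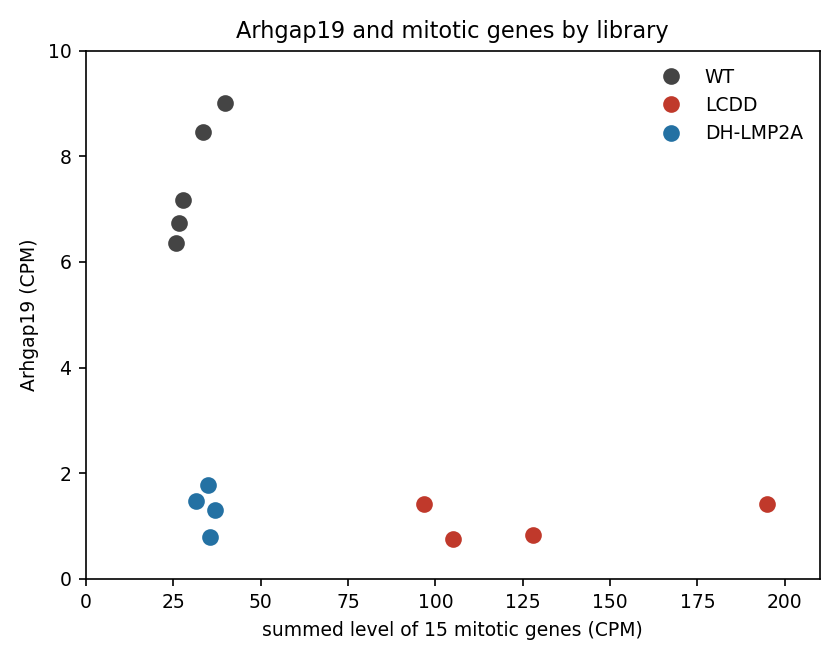
Level of Arhgap19 in CPM against the summed level of the 15 mitotic genes in CPM, 1 point a library. The LCDD points lie at mitotic sums of 96.7 to 195 with Arhgap19 at 0.754 to 1.42 CPM, and the WT points at sums of 25.9 to 39.8 with Arhgap19 at 6.37 to 9.004 CPM.

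Genes next to the 7 were mostly not called. Within 1 Mb lay 144 other tested genes. None of them was called by edgeR between LCDD and WT, where 1.84% of all tested genes were called, while 12 had an unadjusted p under 0.05 and DESeq2 called 3. Between LCDD and DH-LMP2A 5 of the 144 were called, 3.47% against 2% of all tested genes. Between DH-LMP2A and WT 1.39% were called, against 0.627%. Gm13145 was the 1 called lower there and 1 gene was called higher, where 0.275% of tested genes were called higher. Of the 5 called between LCDD and DH-LMP2A, 4 lay near 2610305D13Rik. Gm13145, 221 kb away, also had no count in any DH-LMP2A library, with 9, 23, 5 and 24 counts in LCDD and 21, 3, 20, 20 and 4 in WT. It was at least 4.59-fold higher in LCDD than in DH-LMP2A (edgeR adjusted p = 0.0198). Angptl7, a secreted angiopoietin-like protein gene 853 kb away, went the other way, with 2.45 CPM on average in LCDD, 98.0 in DH-LMP2A and 11.8 in WT (log2 fold change -5.34 ± 0.78, SE; edgeR adjusted p = 0.00485). Masp2, a complement protease gene 960 kb away, had 0.156, 3.98 and 0.870 CPM in the same order (log2 fold change -4.62 ± 0.89, SE; edgeR adjusted p = 0.0196). The WT means of both genes hide a split between pools and single mice. Angptl7 had 1.04 and 6.12 CPM in WT libraries 1 and 2, the pools, and 14.8 to 19.1 in the single mice. Masp2 had 0.129 and 0.0618 CPM in the pools and 0.973 to 1.75 in the single mice. The call outside this neighbourhood was Orc6, a subunit of the origin recognition complex 16 kb from Mylk3, with 14.9 CPM in LCDD and 10.01 in DH-LMP2A (edgeR adjusted p = 0.0351). Mylk3 and Arl2bp are 9.28 Mb apart on chromosome 8, and of the 54 tested genes between them edgeR called none in either comparison of LCDD. Against WT 5 of the 54 had an unadjusted p under 0.05 and against DH-LMP2A 9, and DESeq2 called 3 in each.

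**Figure D4:**
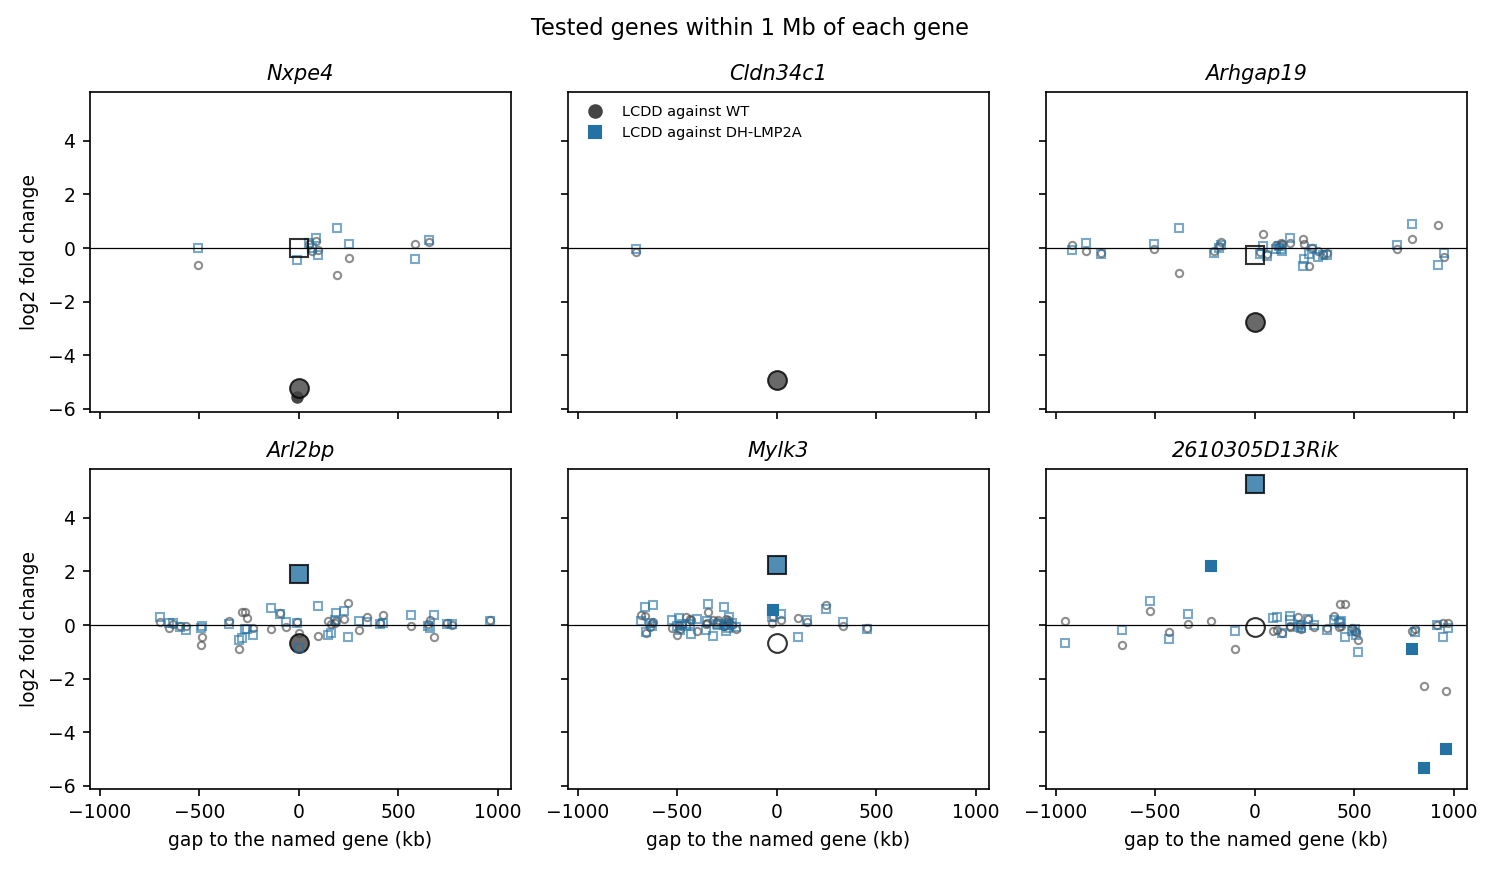
Log2 fold change of the tested genes within 1 Mb of each gene against their distance in kb, for LCDD against WT (circles) and against DH-LMP2A (squares). Large symbols are the named gene, filled symbols were called, and genes at or under the floor in 1 genotype are drawn at their bound. Nxpe2 has no panel of its own and is a filled circle in the panel of Nxpe4. The 5 called neighbours that are not among the 7 genes are all squares, 4 of them in the panel of 2610305D13Rik.

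Genes with the most similar pattern were ranked by Pearson's r of log2 CPM over the 13 libraries among 13533 genes, as a description. For Nxpe2, Nxpe4, Cldn34c1 and Arhgap19 the same names recurred. Pydc3, a PYRIN domain gene, had r of 0.964 with Nxpe2 and 0.949 with Arhgap19, and 17.5, 1.26 and 1.55 CPM on average in WT, LCDD and DH-LMP2A. Igha, which encodes the heavy chain constant region of IgA, had r of 0.965 with Cldn34c1 and 30.8, 0.131 and 0.194 CPM. The transcript 2210409E12Rik had r of 0.995 with Nxpe4 and 7.16, 0.0135 and 0 CPM, and lies within the span of Coil, the gene of the Cajal body protein coilin, which had r of 0.96. The nearest gene to Arl2bp was H2-Q6, to Mylk3 H2-Q7 and to 2610305D13Rik Mcm6. H2-Q6, a class Ib histocompatibility gene, had r of 0.922 with Arl2bp and 2050, 2240 and 30.5 CPM in WT, LCDD and DH-LMP2A, and H2-Q7 had r of 0.926 with Mylk3. These 2 genes are near copies of each other, so their separate values are uncertain. Mcm6, a subunit of the replicative helicase, had r of 0.927 with 2610305D13Rik and 18.4, 24.4 and 4.49 CPM.

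Markers of other cell types were measured beside these genes. The 6 B and plasma cell markers summed to 12.4 to 39 CPM in WT, 6.25 to 9.17 in LCDD and 5.19 to 11.9 in DH-LMP2A, so that every WT library lay above the rest, as with Nxpe2, Nxpe4, Cldn34c1 and Arhgap19. The 6 intestinal epithelial markers summed to 17.5 to 47 CPM in WT, 19.3 to 27.6 in LCDD and 28.1 to 45 in DH-LMP2A, and Cdx1, Cdx2, Krt20 and Fabp2 did not exceed the floor anywhere. The 6 cardiac muscle markers summed to 3.24 to 6.15 CPM in WT, 10.2 to 14.8 in LCDD and 5.01 to 8.82 in DH-LMP2A, and Nppa did not exceed the floor. The cardiac markers did not share 1 order, since the mean of Tnnt2 was 7.99 CPM in LCDD, 1.71 in WT and 1.39 in DH-LMP2A and that of Myh6 was 2.87, 2.02 and 4.82. The 8 proximal tubule markers summed to 48.4 to 2110 CPM in WT, 410 to 1340 in LCDD and 354 to 3010 in DH-LMP2A. The part of these markers in the levels of the 7 genes was not tested.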

How the data were processed

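The files hold raw counts of read pairs per gene for 13 libraries of bead-purified glomeruli. Per the labels' protocols, libraries were made with a TruSeq stranded mRNA kit and sequenced as 75-base pairs on an Illumina NextSeq. The deposited counts were made by the authors with STAR 2.4.0a and featureCounts of Subread 1.5.0-p3 on mm10 (GRCm38), per the submitters' processing notes, which also name DESeq2. The annotation, the strand setting and the treatment of reads that map to several genes are not given in the sources used here, and the last can lower or move counts of genes with close copies.

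Genes were matched by symbol, and coordinates are those in the deposited table on GRCm38; identifiers are from GENCODE M21, in which 44117 symbols were found. Counts were filtered with filterByExpr (minimum count 10), which left 16738 genes, scaled by TMM and fitted with edgeR 4.0.16 (R 4.3.3) quasi-likelihood tests over all 13 libraries, 1 coefficient per genotype. P-values were adjusted by Benjamini-Hochberg over all tested genes and called under 0.05. DESeq2 1.42.0, RLE scaling, other filters, covariates, a block and left-out libraries were alternatives. CPM were computed from TMM-scaled library sizes of the tested genes, and log2 CPM used a prior count of 2. Counting error only is covered by the floor of 3 counts. No count column was left unused.

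The genes described and the lists were chosen with earlier results of these data known. Named genes are the 7, the members of their family and pathway lists, called genes within 1 Mb and, for each of the 7, the 3 genes of at least 1 CPM with the highest correlation, leaving out symbols that begin with Gm and a digit, with Xist and Y-linked genes as a check. The values of 1 gene named by this rule are not reported here. Promoter windows were searched for the 4 motifs on both strands.

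Libraries were grouped by the genotype label. Titles carry a code of unstated meaning that recurs across genotypes. Same-code LCDD and DH-LMP2A libraries deviated together in all 4 pairs (r of 0.153 to 0.593 over genes, mean 0.421), so the code was taken to pair them. Pairs with different codes had r of -0.599 to 0.524, with a mean of -0.139. Deviations were taken from genotype means, so this negative mean largely follows from the same-code mean and adds little to it. Among pairs with different codes, LCDD library 2 had the highest r, 0.524 with DH-LMP2A library 1. It had 0.153 with its own-code library, so the pairing is not clean for each library. No libraries of a genotype agreed within counting noise. In simulated counts at this size for 16476 genes, 43.4% of changes of 1 on the log2 scale and 74.7% of changes of 2 were recovered between LCDD and WT, and 39.4% and 72.7% between LCDD and DH-LMP2A.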

Additional observations from a re-analysis of the deposited data

Results flagged for a closer look

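Among 24 groups of values examined for a library far from the others of its genotype, 6 held one, where chance gives about 1 in 20, or 1.2. In WT library 1, log2 CPM was 3.60 for Nxpe2 (the others 2.70 to 2.95) and 2.37 for Cldn34c1 (1.80 to 1.94). Leaving this library out kept both genes called lower in LCDD. In DH-LMP2A library 2 it was -0.73 for Nxpe4 (-1.25 to -1.18) and 0.90 for Mylk3 (0.13 to 0.155), still below every LCDD library for Mylk3. LCDD library 2 stood at -3.04 for Cldn34c1 against -3.57 in the others, which is a difference of 1 count. The total of LCDD library 3 was 18604929 counts, against 25276687 to 26544422 in the other LCDD libraries.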

How the results depend on the processing

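In all alternatives tried, 3 of the 7 genes were called higher in LCDD than in DH-LMP2A. The number called lower in LCDD than in WT was 5 in all but the sex marker covariate and the fit without the 3 single-mouse WT libraries, where Arl2bp lost its call and 4 were left. Mylk3 was called in none between LCDD and WT (adjusted p of 0.0967 to 0.770). Direction changed for 2610305D13Rik between LCDD and WT with the sex marker covariate (log2 fold change 0.33) and on leaving out single libraries (-0.64 to 0.12; above 0 without LCDD 3, LCDD 4 or WT 1), and for Nxpe4 between LCDD and DH-LMP2A with a tubule marker covariate (0.0645) and on leaving out single libraries (-0.13 to 0.16). None of these values was called. Without LCDD 1, Nxpe2 moved from -5.58 to -6.47 against WT and from -0.45 to -1.34 against DH-LMP2A, with no change of call. With only LCDD and DH-LMP2A in the fit, Nxpe2, Nxpe4 and Cldn34c1 had too few counts to be tested.

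The number of all genes called moved more. Between LCDD and DH-LMP2A it was 334, and 812 with DESeq2, 213 with only these genotypes in the fit, 1021 with the replicate block, 1114 with the tubule covariate and 113 to 484 on leaving out single libraries (186 without LCDD 1, 173 without LCDD 2, 113, 114 and 132 without DH-LMP2A 2, 3 and 4). Between LCDD and WT it was 308, and 726 with DESeq2, 185 with only these genotypes, 33 with the sex marker covariate, 54 without the single-mouse WT libraries and 159 to 441 on leaving out single libraries (169, 159 and 165 without WT 3, 4 and 5). The replicate block gave 536 there; LCDD and WT libraries of the same code correlated at -0.165 to 0.4, with 4 of 5 pairs above 0.1 and a mean of 0.214 (-0.0718 in other pairs). As 1 pair was below 0.1, the code was not taken to pair them. The mean of the other pairs largely follows from that of the same-code pairs here too. The block changed no call of the 7 genes. The causes were not tested. Within 5 Mb in place of 1 Mb, 1.06% of genes were called between LCDD and WT, and 1.9% between LCDD and DH-LMP2A. Depth limits the comparison of LCDD with DH-LMP2A for Nxpe2, Nxpe4 and Cldn34c1, which rest on at most 14 counts a library.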

Other observations

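The split of Nxpe4 within WT between pools and single mice also appeared in its most similar genes. Those genes were ranked over libraries that include the WT ones, so a shared split follows in part from the ranking. Coil had 69.8 and 70.4 CPM in WT libraries 1 and 2, the pools, and 23.9, 25.1 and 24.0 CPM in the single mice, with means of 7.86 CPM in LCDD and 6.71 in DH-LMP2A. The transcript 2210409E12Rik, inside the span of Coil on chromosome 11, had 12.4 and 13.04 CPM in the pools and 2.80, 3.53 and 4.06 in the single mice. For Nxpe2, next to Nxpe4, the pools had 12.004 and 7.66 CPM and the single mice 6.40 to 7.34. The split was noticed in the values and was not tested. The single mice share a title code that neither WT pool carries, so that pooling and code cannot be told apart. Besides Cldn34c1 and 2610305D13Rik, the genes at or under the floor in every DH-LMP2A library and above it in every WT library were 2210409E12Rik, Gm15698, Ighv3-6, Mmp13, Gm19684, Igkv5-43 and Rplp0-ps1, all chosen after their values were seen.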
